A study of Mus musculus with 24 samples.

Results

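Cytosines that were close to unmethylated in all mice were described here in the dentate gyrus, a hippocampal region where new granule neurons arise throughout adult life. They were selected on their measured values: a cytosine on chromosomes 1 to 19 belonged to the set when it had a value in all 19 mice and when the unweighted mean of these 19 methylation percentages was under 5%. The rule gave 38131 of the 67080 autosomal cytosines that were measured in every mouse, out of 762182 cytosines in the table. The low level itself is therefore a property of the selection and not a result. All but 1 of the 38131 cytosines lay in a CpG of the mouse genome (GRCm38, mm10), and they are called unmethylated CpGs below.

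The values came from reduced representation bisulfite sequencing (RRBS) of micro-dissected dentate gyrus from single female C57BL/6JRj mice, in which bisulfite converts unmethylated cytosines and the share of unconverted reads gives the methylation percentage. The groups were 5 Young STD mice at 1.5 months of age and, at 14 months of age, 7 Aged STD and 7 Aged ENR mice, where STD is standard housing and ENR is environmental enrichment, a large shared enclosure with tunnels and with toys that were rearranged weekly, in which mice lived from young adulthood. Young ENR mice were not analysed here. Tissue of all cell types was measured together, so partial methylation in many cells and full methylation in a few cannot be told apart in a value of some percent. Expression was not analysed here, so the labelled tissue was not checked against marker genes. Each mouse had values at 489813 to 725467 cytosines, and library numbers fell into a series starting with 27 (3, 4 and 4 mice in the order above) and one starting with 37 (2, 3 and 3 mice). The labels do not say what these numbers stand for. The reads behind each percentage are unknown beyond the minimum of 10 that the study set.

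In mammals most CpGs carry methylation, which DNMT1 copies to the new strand after replication and which DNMT3A and DNMT3B can add anew. Stretches rich in CpGs, called CpG islands, are the main exception: they lie at the starts of most housekeeping and many developmental genes and stay free of methylation in nearly all tissues, in part because proteins with a CXXC domain bind unmethylated CpGs and because TET enzymes oxidise methylcytosine. Imprinted genes differ from this, since the allele of a single parent is methylated at their control regions.

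Stretches of 120 bases in which unmethylated CpGs lay close together are shown to make these places visible. They were read from GRCm38, run 5′ to 3′ on the strand of the gene named (the plus strand for the windows far from a start), hold no exon sequence, and have in capitals each CpG at which a cytosine belonged to the set. Prox1 (chr1:190170766-190170885) encodes the homeobox factor that maintains granule neuron identity, Egr2 (chr10:67537560-67537679) an activity-induced zinc-finger factor, Bcl2l11 (chr2:128126621-128126740) the death-promoting protein BIM, En1 (chr1:120602222-120602341) a homeobox factor of midbrain development and Rasgrf1 (chr9:89909043-89909162) a guanine nucleotide exchange factor that is imprinted in mouse. The last pair lie over 5000 bases from any annotated start, at chr19:44674766-44674885 outside genes (nearest start Gm26644) and at chr4:117484422-117484541 in an intron of Rnf220, a ubiquitin ligase.
Prox1: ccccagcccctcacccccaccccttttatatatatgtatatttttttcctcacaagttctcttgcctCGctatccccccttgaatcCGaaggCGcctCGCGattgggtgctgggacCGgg
Egr2: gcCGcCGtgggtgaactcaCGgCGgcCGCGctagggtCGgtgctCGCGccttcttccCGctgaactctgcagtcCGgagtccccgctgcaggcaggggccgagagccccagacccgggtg
Bcl2l11: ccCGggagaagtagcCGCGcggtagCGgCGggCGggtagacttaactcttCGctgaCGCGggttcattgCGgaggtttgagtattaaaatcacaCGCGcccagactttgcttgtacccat
En1: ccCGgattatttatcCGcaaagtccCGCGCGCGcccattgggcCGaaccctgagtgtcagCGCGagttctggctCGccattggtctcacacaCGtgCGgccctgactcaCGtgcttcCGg
Rasgrf1: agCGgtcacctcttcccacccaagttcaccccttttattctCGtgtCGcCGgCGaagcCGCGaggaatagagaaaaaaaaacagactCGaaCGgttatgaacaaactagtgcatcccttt
Gm26644: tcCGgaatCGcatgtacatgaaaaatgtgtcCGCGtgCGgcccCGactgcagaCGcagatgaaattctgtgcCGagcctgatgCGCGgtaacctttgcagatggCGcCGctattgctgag
Rnf220: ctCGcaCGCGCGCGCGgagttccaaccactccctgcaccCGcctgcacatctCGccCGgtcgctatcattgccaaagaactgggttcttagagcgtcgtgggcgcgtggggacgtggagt

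In the Egr2 window 11 of 14 CpGs belonged to the set, with a mean over cytosines and mice of 0.660% and mouse means from 0% to 3.64%. The other CpGs of this window were not measured in every mouse. The Bcl2l11 window held 12 of 13 such CpGs (mean 1.22%, mouse means 0% to 4.17%) and the Prox1 window all 6 (mean 0.850%, mouse means 0% to 2.66%). All 14 CpGs of the En1 window belonged to the set, although 2 of them had on the other strand a cytosine that did not, and the mean of the 17 cytosines in the set was 2.24%. The window near Gm26644, with 12 of 12 CpGs, had a mean of 1.22%, within the range of the promoter windows above.

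Unmethylated CpGs lay close to transcription starts and where CpGs were dense. Of the 38131, 80.1% were within 1000 bases of a start annotated in GENCODE M21 (promoter), 2.998% were in other exons, 7.76% in introns and 9.18% outside genes. Among the 28949 other cytosines measured in every mouse, 23.5% were at promoters and 37.4% outside genes, and among all cytosines deposited 53.6% were at promoters. These shares describe all cytosines in each set and need no sampling error, and the RRBS fragments, not the genome, are their background. The median distance to a start was 290 bases in the set and 6711 bases in the other cytosines. The share of cytosines that were unmethylated was 87.2% in the 200 bases before a start and 86.8% in the 200 bases after it, and was 63.7% at 1000 to 1200 bases downstream against 53.0% at the same distance upstream. At 2400 to 2600 bases it was 28.7% upstream and 33.3% downstream.

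**Figure D1:**
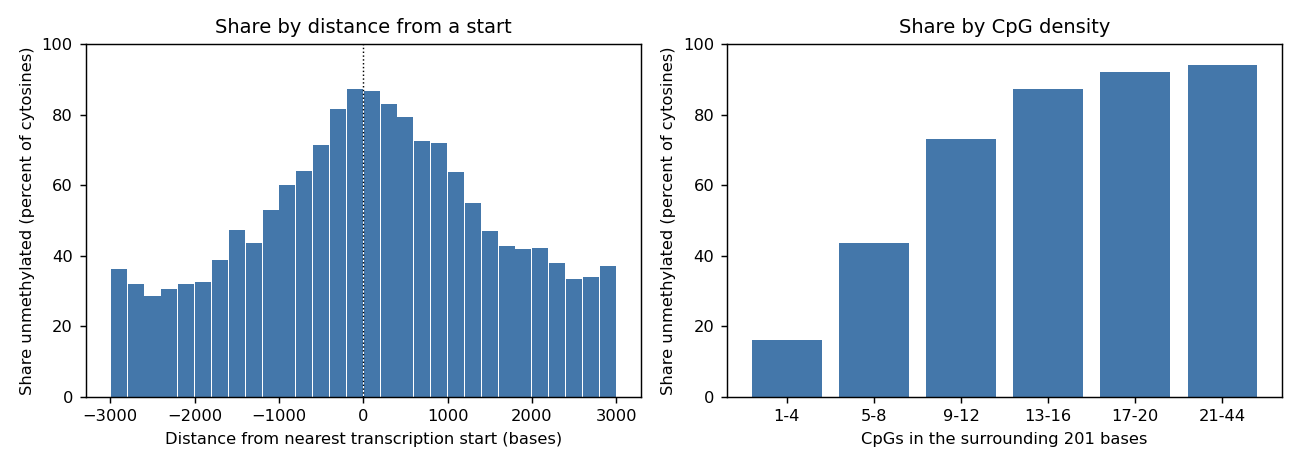
Share of the cytosines measured in every mouse that were unmethylated (percent), on the left by distance from the nearest transcription start in bins of 200 bases (bases, negative is upstream) and on the right by the number of CpGs within 100 bases to either side, its own included. The share peaks at 87.2% just before the start and rises from 16.2% at 1 to 4 CpGs to 94.0% at 21 to 44 CpGs.

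CpG density separated the sets further. The sequence within 100 bases to either side, the cytosine's own CpG included, held a median of 12 CpGs in the set and 5 around the other cytosines. With 1 to 4 CpGs in that window, 16.2% of 14482 cytosines were unmethylated, with 9 to 12 CpGs 73.2%, and with 21 to 44 CpGs 94.0% of 4286. A window of 250 bases to either side that met island-like criteria (at least 50% GC and an observed to expected CpG ratio of at least 0.6) surrounded 63.2% of the unmethylated CpGs and 10.2% of the other cytosines. Bases that the genome file masks as repeats held 4.50% and 15.5%. Across the 19 autosomes the unmethylated share ran from 53.3% on chromosome 13 to 61.5% on chromosome 2. Motifs that cover the CpG itself were searched on both strands. GGGCGG, the GC box bound by SP and KLF factors, covered 2.73% of the unmethylated CpGs and 1.01% of the other cytosines, and CTCGCGA covered 0.233% and 0.0898%. TGACGT (0.448% and 0.321%), CACGTG (0.412% and 0.325%) and GCGCATG (0.157% and 0.159%) were rare in both sets. CCGGAA, which overlaps the CCGG at which RRBS cuts, covered 3.91% of the unmethylated CpGs and 8.81% of the others. A match describes letters and no binding.

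Unmethylated CpGs usually had unmethylated neighbours. No matching share was computed for the other cytosines. Where CpGs were dense, most cytosines were unmethylated in any case (73.2% with 9 to 12 CpGs within 100 bases to either side). Of 33272 that had at least 2 other cytosines measured in every mouse within 100 bases, the mean of these neighbours was under 5% for 94.4% and at least 50% for 4. At 3 of these 4, every neighbour was at 50% or more. They were a cytosine at -8000 bases from the start of the noncoding gene Gm17514 (chromosome 13, position 66211636, mean 2.33% beside 83.3% in 2 neighbours), one in an intron of Mroh2a (chromosome 1, position 88246906, 0% in all 19 mice beside 81.5% in 3 neighbours) and one at -53 bases from the start of 3110070M22Rik (chromosome 13, position 119488436, mean 3.10% beside 77.0% in 18 neighbours). These 3 were looked for after the values had been seen. Where the opposite strand of the same CpG was also measured in every mouse (1799 cytosines), its mean was under 5% for 89.3%, between 5% and 20% for 193, and at 20% or more for 0.

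The set formed 8492 groups with gaps of at most 1000 bases, with a median of 3 and up to 42 cytosines. Of these groups, 1393 lay over 5000 bases from any start and held 3440 cytosines (9.02%), and 173 of them held at least 5. The largest was on chromosome 1 (171102106 to 171103369, 10549 bases from the start of Cfap126, a gene of ciliated cells) with 23 cytosines, a mean of 1.15% and mouse means from 0.0518% to 2.98%. The next were on chromosome 19 (44674768 to 44675159, 20 cytosines), in an intron of Rnf220 on chromosome 4 (117484146 to 117484479, 16), in an exon of Pcdh1, a protocadherin, on chromosome 18 (38185120 to 38186044, 15) and 6721 bases from Cbx8, a Polycomb subunit, on chromosome 11 (119047690 to 119047891, 14). Their means were 1.40%, 1.44%, 2.34% and 1.59%. Groups nearest Gm4675 on chromosome 14 and Mir148a on chromosome 6 also held 14 cytosines each. Unmethylated CpGs over 5000 bases from a start had a mean of 2.26%, above the 1.31% of those at promoters, and a value of 20% or more in at least 1 mouse was found at 37.7% and 23.2% of them.

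Of 6563 protein-coding genes with a promoter cytosine measured in every mouse, 5825 had at least 1 that was unmethylated. Of the 3362 with at least 5 such cytosines, all of them were unmethylated in 1683 (50.1%), some in 1632 and none in 47 (1.40%). The promoters with most unmethylated CpGs were those of Hspa9, a mitochondrial chaperone (38 of 38 cytosines measured), and Pou4f1, a factor of sensory neurons (37 of 39), followed by Egr2 (34 of 34) and by Hjurp and Trpm8 (32 of 32 each). Hjurp, which loads the centromeric histone, and Trpm8, the cold-sensing channel, start head to head, so these are the same 32 cytosines. Sulf1, a heparan sulfate sulfatase (30 of 30), Bcl2l11 (29 of 29), Oser1 (29 of 29), Rreb1, a zinc-finger factor downstream of Ras (29 of 32), and Tbc1d1, a Rab GTPase regulator (27 of 31), completed the first 10. At Hspa9 the mean over the 38 cytosines was 0.753% ± 0.413 (SD, n = 5) for Young STD mice, 1.26% ± 0.842 (SD, n = 7) for Aged STD and 0.944% ± 0.598 (SD, n = 7) for Aged ENR mice, and the ranges of the mice overlapped. Tbc1d1 had 0.915% ± 1.01 (SD, n = 5), 2.23% ± 1.27 (SD, n = 7) and 1.52% ± 1.05 (SD, n = 7), with overlapping ranges too.

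Gene lists were then set beside all promoters, at which 81.8% of the 37334 cytosines measured in every mouse were unmethylated. Immediate early genes, which neurons switch on with activity, had 166 of 180 (92.2%), with all 34 at Egr2, 23 of 24 at Klf4, a zinc-finger factor, and 19 of 23 at Bdnf, the neurotrophin. Genes that write, erase or read DNA methylation had 63 of 68 (92.6%), with 15 of 16 at Tet1 and 10 of 10 at Tet3, which oxidise methylcytosine, and 10 of 11 at Mbd4, a glycosylase that repairs deaminated methylcytosine. Dentate granule neuron genes had 59 of 65 (90.8%), with 10 of 10 at Prox1, 9 of 10 at Bcl11b, a zinc-finger factor, and 13 of 17 at Cux2, a homeobox factor. Housekeeping genes had 42 of 47 (89.4%), among them 8 of 9 at Snrpd3 (splicing), 7 of 7 at Ywhaz (a 14-3-3 protein) and 5 of 5 at Rplp0 (ribosome). These 4 lists lay above the share over all promoters.

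Below it were developmental transcription factors with 286 of 375 (76.3%), adult neurogenesis genes with 55 of 74 (74.3%), germline genes with 10 of 13 (76.9%) and genes of glia and vessels with 23 of 37 (62.2%). Among developmental factors, En1 had 21 of 23 and Gata3, a zinc-finger factor, 19 of 21. In the neurogenesis list, the receptor Notch1 had 13 of 14 and its target Hes1 11 of 12, whereas Pax6, a factor of neural stem cells, had 0 of 9 with a mean of 22.7%. In the list of glia and vessels the glutamate transporters Slc1a3 (10 of 10) and Slc1a2 (6 of 8) and the oligodendrocyte factor Olig2 (5 of 6) contrasted with Aldh1l1, an astrocyte enzyme, with 0 of 5 and a mean of 32.2%. The germline list had cytosines at 4 genes only: the meiotic cohesin gene Smc1b (4 of 5), Tex15 (4 of 4) and Dazl (2 of 2) held all 10 unmethylated ones, and the 2 cytosines at Slc25a31 averaged 87.1%. The lists were not matched for CpG density or for the number of cytosines measured. Within the set, the ranges of the 3 groups of mice overlapped at all 9 lists. The unmethylated CpGs of immediate early genes had means of 1.11% ± 0.339 (SD, n = 5) for Young STD mice, 1.06% ± 0.208 (SD, n = 7) for Aged STD and 1.08% ± 0.332 (SD, n = 7) for Aged ENR mice. Those of developmental transcription factors, the list with the highest means, had 2.12% ± 0.391 (SD, n = 5), 2.01% ± 0.262 (SD, n = 7) and 2.09% ± 0.503 (SD, n = 7). Group means lay further apart in genes of glia and vessels, with 1.19% ± 0.370 (SD, n = 5), 2.00% ± 1.15 (SD, n = 7) and 1.24% ± 1.02 (SD, n = 7). In housekeeping genes they were 0.902% ± 0.593 (SD, n = 5), 1.33% ± 0.717 (SD, n = 7) and 1.27% ± 0.349 (SD, n = 7). At Dazl all Young STD and Aged ENR mice were at 0% and Aged STD mice ran from 0% to 14.4%, which overlapped both.

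**Figure D2:**
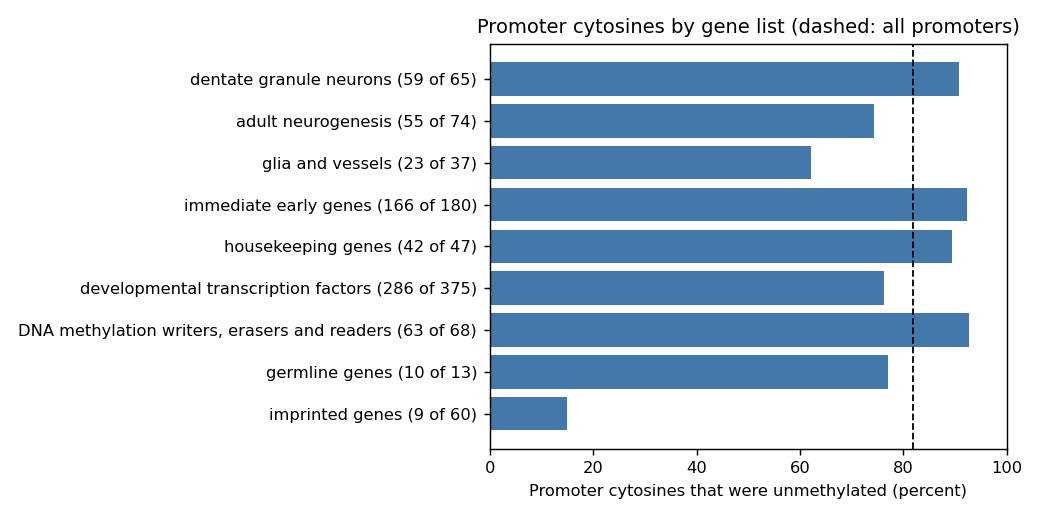
Percent of the promoter cytosines measured in every mouse that were unmethylated, for each gene list (bars, with the counts behind each share beside its name) and for all promoters (dashed line, 81.8%). Imprinted genes stand lowest at 15%, and the list of DNA methylation genes highest at 92.6%.

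Imprinted genes stood apart, with 9 of 60 promoter cytosines (15%) unmethylated, all of them at Rasgrf1. The other 9 genes of the list with data had none. Zrsr1, a splicing factor gene (17 cytosines), averaged 36.5%, Peg13, a noncoding RNA (6), 32.5%, Nnat, encoding neuronatin (7), 27.9%, and Gnas, encoding the stimulatory G protein subunit (10), 27.01%. H19, a noncoding RNA (3), averaged 93.3%. The 9 cytosines at Rasgrf1 had means of 1.20% ± 0.945 (SD, n = 5) for Young STD mice, 0.709% ± 0.929 (SD, n = 7) for Aged STD and 1.14% ± 0.887 (SD, n = 7) for Aged ENR mice, and 0 of their values reached 20%.

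The mean over all unmethylated CpGs and mice was 1.48%, and 6317 of them (16.6%) were at 0% in all 19 mice. Means under 0.5% were found at 12998 (34.1%) and means of 4% to 5% at 3093 (8.11%). Just inside the limit were cytosines near Carlr, Gm22203 and Ubl3, each with a mean of 4.999%, and just outside it were cytosines near Gng7, Ccdc124 and Gcnt2, each at 5.001%, so that the limit cut through a continuous range of levels. A further 7494 cytosines had a mean between 5% and 10%, 5478 between 10% and 20%, 8851 between 20% and 80%, and 7126 at 80% or more.

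The highest levels within the set were at the restriction site itself. RRBS cuts DNA with MspI at CCGG, and 9053 (23.7%) of the unmethylated CpGs, against 53.6% of the other cytosines, were the CpG of such a site. Their mean was 2.87%, against 1.04% for the other 29078. A value of 20% or more in at least 1 mouse occurred at 47.0% of them, against 19.1%, and a value of 0% in all mice at 1.04%, against 21.4%. In each of the 19 mice the CCGG cytosines had the higher mean (2.17% to 3.43%, against 0.884% to 1.20%). With distance from the site there was no gradient, since the mean was 1.06% at 1 to 10 bases and between 0.955% and 1.08% in all bins out to 75 bases. A raised level at CCGG was also seen without the selection on level. Among promoter cytosines measured in every mouse with at least 13 CpGs within 100 bases to either side, 77.6% of the 2997 at CCGG and 96.1% of the 1518 at 1 to 10 bases from it were under 5%, with means of 3.95% and 1.82%. Here the nearest bin was also above the bins further out, which had means of 1.21% to 1.56%. The part of the cut and of the fragment ends in these values was not tested.

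**Figure D3:**
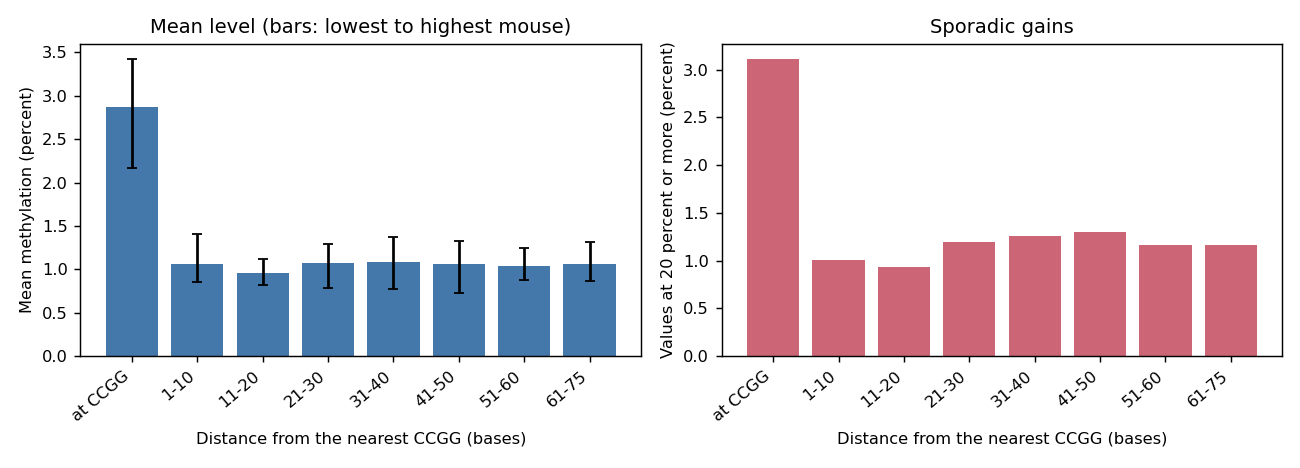
Mean methylation (percent, left; black lines from the lowest to the highest of the 19 mouse means) and share of values at 20% or more (percent, right) of the unmethylated CpGs, by distance from the nearest CCGG in bases. Cytosines at CCGG stand at 2.87% and 3.11%, all bins away from it at 1.08% or below and 1.30% or below.

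A value of at least 20% in a mouse at a CpG of the set was called a sporadic gain. By the rule, at most 4 of the 19 mice could show one at the same CpG. Of 724489 values 11720 were gains (1.62%), with a median of 25.9%, and 66.7% of them were under 30%. The highest was 93.8%, 570 were at 50% or more and 8 at 90% or more. At least 1 gain was seen at 9800 CpGs (25.7%): 8006 had it in 1 mouse, 1669 in 2, 124 in 3 and 1 in 4. Where 1 mouse had a gain, 82.9% of the values of the other mice were exactly 0%, close to the mean of 83.8% over all unmethylated CpGs, and at 1257 of the 8006 CpGs all of them were.

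The CpG with gains in 4 mice lay 5 bases after the start of Insc, which encodes an adaptor for spindle orientation (chromosome 7, position 114745771, minus strand). Its values were 23.5% in Young STD replicate 2, and 20.5%, 27% and 20.6% in Aged STD replicates 1, 2 and 7. All 15 other mice, among them the 7 Aged ENR mice, were at 0%. Of the 124 CpGs with gains in 3 mice, the 9 with the highest mean, just under the limit of the set, lay near Pck1, Gm47691, Tspan12, Pik3r1, Cacna2d2, Rasl10a, Lbx2, Psmc2 and Gm48648. At Pik3r1, the regulatory subunit of PI 3-kinase, the gains were 31.3% in a Young STD, 25.8% in an Aged STD and 30% in an Aged ENR mouse, and the median of each group was 0%. At Rasl10a, a small GTPase gene, they were 22.6% in an Aged STD mouse and 22.9% and 43.8% in Aged ENR mice, with all Young STD mice at 0%. The CpG near Pck1, the gluconeogenic enzyme, had 24.2% and 29.4% in Young STD mice and 31.5% in an Aged ENR mouse. The mice with gains thus came from more than 1 group at each of these 4 CpGs, which were among those picked for their gains.

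Most gains were not shared with a neighbouring CpG of the set. A partner counted only if it also belonged to the set, so the rule itself limits sharing. The share for the next CpG was 2.16% with a limit of 2% and 13.7% with a limit of 10%. At the 1606 cytosines whose opposite strand also belonged to the set, 12 of 448 gains (2.68%) were accompanied by at least 20% on the other strand in the same mouse, against 1.47% of all values of these cytosines, and the other strand was at exactly 0% in 76.3%. With the nearest other member on the same strand within 50 bases, 517 of 9161 gains (5.64%) were shared, against 1.46% of all values, and that neighbour was at 0% in 86.9%. Opposite strands are read from separate molecules, whereas neighbours on 1 strand are often covered by the same reads. Of gains of at least 50%, 1 of 19 was accompanied by a gain on the other strand and 33 of 482 by one at the next CpG. In most cases the gain was not seen at the partner cytosine.

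Mean methylation over the 38131 CpGs was 1.46% ± 0.127 (SD, n = 5) in Young STD mice, with values of 1.50%, 1.61%, 1.53%, 1.30% and 1.36% in replicates 1 to 5. In Aged STD mice it was 1.48% ± 0.143 (SD, n = 7), with a lowest value of 1.30%, a median of 1.52% and a highest of 1.64%, and in Aged ENR mice 1.48% ± 0.132 (SD, n = 7), with 1.26%, 1.48% and 1.63%. Over both library series the groups overlapped, and the differences of 0.0254 points (Aged STD minus Young STD), -0.00173 points (Aged ENR minus Aged STD) and 0.0237 points (Aged ENR minus Young STD) were smaller than the SD of any group. Since the set was chosen on these values, no test was made. Within series 27, Aged STD minus Young STD was -0.125 points and within series 37 it was 0.240 points, so the sign differed between series. In series 37 both Young STD mice (1.30% and 1.36%) lay below all aged mice (from 1.47%), whereas in series 27 the ranges overlapped. The corresponding values for Aged ENR minus Young STD were -0.132 and 0.245 points, and for Aged ENR minus Aged STD -0.00664 and 0.00481 points.

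Sporadic gains varied more between mice than between groups. Their share of the CpGs was 1.01%, 0.797%, 0.991%, 2.34% and 2.33% in Young STD replicates 1 to 5 (1.49% ± 0.772, SD, n = 5). It was 1.61% ± 0.559 (SD, n = 7) in Aged STD mice, from 0.855% over a median of 1.47% to 2.20%, and 1.72% ± 0.341 (SD, n = 7) in Aged ENR mice, from 1.30% over 1.56% to 2.16%. The lowest and highest mouse were both Young STD mice, and each difference between groups (0.114, 0.113 and 0.227 points in the order above) was smaller than the SD of the groups compared. The Young STD mice split by series, with 0.932% ± 0.117 (SD, n = 3) in series 27 and 2.33% ± 0.00927 (SD, n = 2) in series 37. Within series 27, Aged STD mice were 0.764 points above Young STD mice, and within series 37 the same difference was -0.846 points. For Aged ENR minus Young STD, the values within series were 0.795 and -0.625 points, and for Aged ENR minus Aged STD 0.0315 and 0.221 points. Within series 27 all Young STD mice (up to 1.01%) lay below all aged mice (from 1.03%). Within series 37 the Young STD mice (from 2.33%) lay above all aged mice (up to 2.20%). Both comparisons with Young STD mice use the same 5 mice. Over both series together, a lower threshold gave larger differences from Young STD mice. Values of at least 10% numbered 1877 ± 100.6 (SD, n = 5) for Young STD mice, 2077 ± 179.6 (SD, n = 7) for Aged STD and 2130.0 ± 134 (SD, n = 7) for Aged ENR mice. No test was made of these counts either, since the rule used the same values. In series 27 the means were 1827 for Young STD, 2073 for Aged STD and 2109 for Aged ENR mice, and in series 37 they were 1953.5, 2081 and 2158. Over both series the ranges overlapped, from 1749 to 2031, from 1778 to 2293 and from 1924 to 2331. In series 27 Young STD mice (1749 to 1873) did not overlap Aged STD (1940 to 2198) or Aged ENR mice (1924 to 2224). In series 37 they overlapped both. As shares of the CpGs, the differences from Young STD were 0.522 points for Aged STD and 0.662 points for Aged ENR. At this threshold both differences in the counts exceeded the SD of either group compared.

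**Figure D4:**
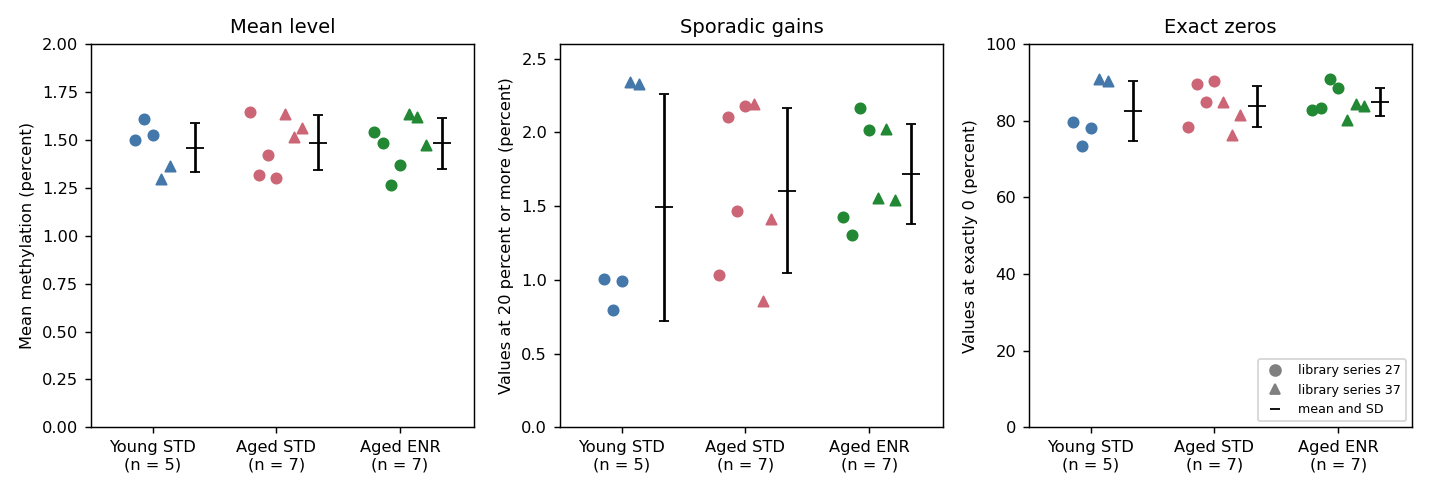
Mean methylation (percent), share of values at 20% or more and share of values at exactly 0% over the 38131 unmethylated CpGs in each mouse (points, circles for library series 27 and triangles for series 37), with the group mean and SD in black. Over both series the groups overlap in all panels. Within each series the gain shares of Young STD and aged mice do not overlap, nor do the means and zero shares in series 37. The Young STD mice of series 37 (2.33% and 2.34% gains) lie above those of series 27 (0.797% to 1.01%).

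Mice with more exact zeros also had more large values. The share of values at exactly 0% ran from 73.3% in Young STD replicate 2 to 91.0% in Young STD replicate 4. Of the 6 mice with the highest share of zeros, 5 were among the 6 with the highest share of gains (Young STD replicates 4 and 5, Aged STD replicates 2 and 4, and Aged ENR replicate 3). These mice had the 5 lowest means, at 1.26% to 1.36%. At other CpGs, those measured in every mouse that averaged 50% to 80% over the remaining mice, between 1.99% (Young STD replicate 2) and 48.6% (Aged STD replicate 4) of the values per mouse were exactly 0% or 100%. Of the 6 mice highest in this share 4 were among the 6 with most gains, and of the 6 lowest 4 were among the 6 with fewest. The number of molecules behind a value is unknown, and its part in the gains was not tested.

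Counts of CpGs with gains by group depend on the number of mice, which was lower for Young STD. At least 1 gain was found at 2734 CpGs in the 5 Young STD mice, at 4055 in the 7 Aged STD and at 4313 in the 7 Aged ENR mice. At 2029, 3135 and 3370 of these CpGs, all gains were in mice of that group. Gains in at least 2 mice of the same group were found at 108, 230 and 273 CpGs.

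To ask which unmethylated CpGs differed with age or housing, all CpGs of the table were fitted with limma (percent scale, two-sided, p-values adjusted after Benjamini-Hochberg over every CpG in the fit), and the unmethylated ones were read from these fits. By the rule, a Young STD mean could exceed an aged mean by at most 19 points, and means of the aged groups could differ by at most 13.6 points. With Aged STD set against Young STD mice, 28469 of the 38131 varied and were tested, and 0 passed an adjusted p of 0.05 (limma, smallest adjusted p 0.451), as did 0 of all 527598 CpGs tested (0%). At an unadjusted p under 0.05, 77 were higher in Aged STD mice (0.270%, against 1.09% of all CpGs tested) and 364 were lower (1.28%, against 3.33%). The selection on a low mean limits the differences that can arise, so nothing is read from shares below those of all CpGs here or in the other comparisons. With 1 mouse left out, the counts ran from 21 (without Young STD replicate 4) to 109 (without Aged STD replicate 4) higher and from 243 (without Aged STD replicate 2) to 679 (without Young STD replicate 4) lower.

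With Aged ENR set against Aged STD mice, 0 of 28988 passed (limma, smallest adjusted p 0.769; 0% of all 530257). Unadjusted, 153 were higher in Aged ENR mice (0.528%, against 1.45% of all) and 155 were lower (0.535%, against 0.797%). This split turned with 1 mouse left out. Without an Aged STD mouse, 81 to 118 were higher and 207 to 314 lower (81 and 314 without replicate 4), and without an Aged ENR mouse 205 to 267 were higher and 89 to 116 lower (267 and 89 without replicate 3). In all 14 fits with 7 against 6 mice, most of the unmethylated CpGs with an unadjusted p under 0.05 had the higher mean in the smaller group. Young STD was the smaller group in the other comparisons, so direction and group size cannot be told apart in their counts. With Aged ENR set against Young STD mice, 0 of 27844 passed (limma, smallest adjusted p 0.776; 0% of all 522272), with 49 higher (0.176%, against 1.4% of all) and 320 lower (1.15%, against 2.55%). With 1 mouse left out, these ran from 20 (without Young STD replicates 1 or 3) to 97 (without Aged ENR replicate 3) higher and from 204 (without Aged ENR replicate 4) to 634 (without Young STD replicate 4) lower. The comparisons share mice, since each group enters a pair of them, so their counts are not independent.

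The ranges of the groups did not overlap at 7 unmethylated CpGs for Aged STD against Young STD (0.0246% of those that varied, against 0.432% of all CpGs that varied and had values in all mice compared), at 1 for Aged ENR against Aged STD (0.00345%, against 0.0162%) and at 6 for Aged ENR against Young STD (0.0215%, against 0.323%). All 14 were lower in the group named first. Over all CpGs that did not overlap, 305 were lower and 56 higher for Aged STD against Young STD, 3 lower and 10 higher for Aged ENR against Aged STD, and 240 lower and 76 higher for Aged ENR against Young STD. The 1 CpG between the aged groups lay in an intron of the noncoding gene AC115789.4 on chromosome 18 (position 83524246). It ran from 1.16% over a median of 2.86% to 19.1% in Aged STD mice and was at 0% in 6 Aged ENR mice and 0.505% in the seventh.

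The unmethylated CpG with the smallest p for age lay 187 bases after a start of Rabgap1, a GTPase-activating protein for Rab proteins (chromosome 2, position 37451823, minus strand). Its values in the Young STD mice were 8.99%, 10.8%, 12.5%, 15.6% and 15.8%. All 7 Aged STD mice were at 0%. Among Aged ENR mice 5 were at 0% and the others, both of series 37, at 8% and 17.9%. The difference of -12.7 points (SE 1.76, limma, unadjusted p = 8.08e-06, adjusted p = 0.451) did not pass the threshold, and passed it only when a single prior variance replaced the trended one (limma, adjusted p = 0.0340), a setting that called 127 of all 527598 CpGs. Next came a CpG at -1511 bases from the start of Olig3, a factor of the dorsal neural tube (chromosome 10, position 19355022), with 7.53%, 8.33%, 6.19%, 9.52% and 4.58% in Young STD mice, 0% in 6 Aged STD mice and 3.19% in the other (limma, adjusted p = 0.743), and a CpG near the pseudogene Gm3571 (chromosome 10, position 93772180), with a mean of 10.1% in Young STD and 0.397% in Aged STD mice (limma, adjusted p = 0.760). Aged ENR mice ranged from 0% to 8.43% near Olig3 and from 0% to 20% near Gm3571, which overlapped both other groups.

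In the other direction, the smallest p values for age were at Arhgef1, a guanine nucleotide exchange factor (chromosome 7, position 24933860, intron), Srrm4, a neuronal splicing regulator (chromosome 5, position 116476314, promoter), and Ndrg2, a gene expressed in astrocytes (chromosome 14, position 51914008, promoter). Near Ndrg2 all 5 Young STD mice were at 0%, and Aged STD mice ran from 0% over a median of 8.43% to 20.6%. Near Arhgef1 the means were 1.27% and 10.1%, near Srrm4 1.16% and 7.02%. The CpGs near Srrm4 and Ndrg2 lay in bases masked as repeats. All 3 had an adjusted p of 0.760 (limma), and at each the ranges of the groups overlapped.

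For housing in aged mice, higher values in Aged ENR mice were led by CpGs at Hhip, an inhibitor of hedgehog signalling (chromosome 8, position 80056848), Fam19a4, a secreted chemokine-like protein (chromosome 6, position 97060160), and Lrrc4b, a synaptic adhesion protein (chromosome 7, position 44428336). Near Hhip 6 Aged STD mice were at 0% and 1 at 3.82%, while Aged ENR mice ran from 1.02% over 8.51% to 21.5%. Of the Young STD mice, 4 were at 0% and 1 at 3.75%. Near Fam19a4 all Aged STD mice were at 0%, and Aged ENR mice ran from 0% over 11.8% to 16.3%. Near Lrrc4b the means were 1.00% in Aged STD and 5.96% in Aged ENR mice. Lower values were led by Pcyox1l (chromosome 18, position 61707409), Clmn, encoding calmin (chromosome 12, position 104862459), and Sec61a1, a subunit of the protein translocon (chromosome 6, position 88518395). Near Clmn all 7 Aged ENR mice were at 0% and Aged STD mice ran from 0% over 12.8% to 22.1%. Near Pcyox1l the means were 10.96% in Aged STD and 0.484% in Aged ENR mice, and near Sec61a1 5.25% and 0.342%. All 6 had an adjusted p of 0.769 (limma).

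For Aged ENR against Young STD mice, a CpG in an exon at -10330 bases from the nearest start, that of Srxn1, which encodes sulfiredoxin (chromosome 2, position 152095186), and CpGs at the promoters of Tlnrd1 (chromosome 7, position 83884381) and Ppargc1b, a coactivator of nuclear receptors (chromosome 18, position 61400564), led the higher values. Young STD mice were all at 0% near Srxn1 and Tlnrd1, and the Aged ENR medians were 9.72% and 9.89%. Near Ppargc1b the means were 0.426% and 8.89%. Lower values were led by the antisense gene Gm35065 (chromosome 3, position 123448195), with 7.69%, 10.96%, 9.92%, 14.1% and 2.70% in Young STD mice and 0% in all 7 Aged ENR mice, Wnt6, a secreted signalling protein (chromosome 1, position 74770613), with means of 11.2% and 1.24%, and the pseudogene Gm48676 (chromosome 13, position 69488081), with 9.37% and 0%. The adjusted p was 0.776 for all 6 (limma).

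**Figure D5:**
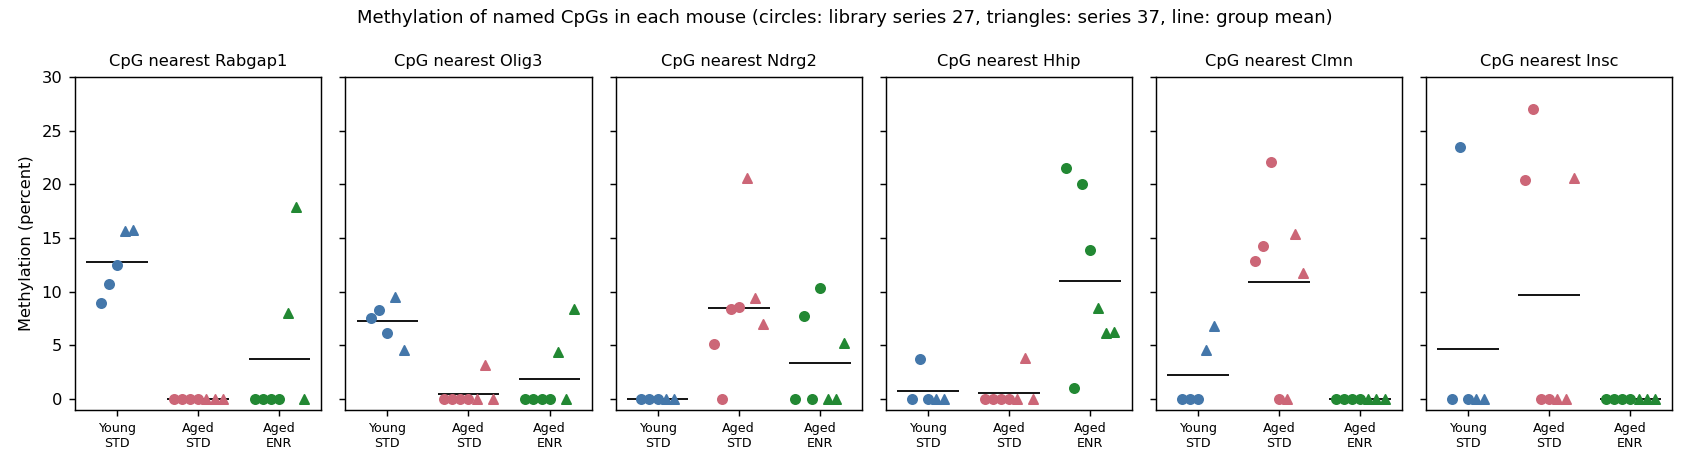
Methylation (percent) in each mouse at CpGs nearest Rabgap1, Olig3, Ndrg2, Hhip, Clmn and Insc (points, circles for library series 27 and triangles for series 37, with lines at the group means). The 5 Young STD mice near Rabgap1 lie at 8.99% or more while all 7 Aged STD mice lie at 0%, and the gains near Insc are in 4 of 19 mice.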

How the data were processed

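RRBS libraries were prepared by the study from dentate gyrus with the Premium RRBS Kit. Per the labels, reads were handled with Trim Galore 0.4.0, cutadapt 1.8.1, Bismark 0.16.1 and methylKit 1.5.2 on mm10. The paper's methods name other versions of Trim Galore and Bismark. The deposited table gives the percent of methylated reads per cytosine and mouse, where the authors required at least 10 reads and values in at least 3 mice per group. It holds no read numbers, so stricter coverage could not be applied, and no intervals for single values are given.

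Features came from GENCODE M21 on GRCm38, in the order promoter (within 1000 bases of a start), exon, intron and intergenic. A gain was a value of at least 20%. Single CpGs were fitted with limma 3.58.1 (trended variance, two-sided, at least 3 values per group, Benjamini-Hochberg adjustment over all CpGs, called at an adjusted p under 0.05), where the study used methylKit's test. A CpG whose values were identical in every mouse of a comparison was not tested. The code was tested on simulated data. Named genes were, per list, the 3 with most unmethylated promoter cytosines and those with at least 5 measured and 0 unmethylated; the 10 promoters with most; per comparison and direction, the 3 smallest p; the 10 most recurrent gains (ties in order of the mean); and the 5 largest groups far from starts. Some genes that these rules name are not reported here. The cytosines were chosen, and the lists, rules and tests written, with earlier results of these data known. Alternatives were other limits, thresholds, variance priors, scales, library series, the replicate number as a block and each mouse left out; leaving out CCGG cytosines or mice with many exact values was added after the data had been seen. Analyses used Python 3.11.15, numpy 2.4.6, pandas 2.3.3, scipy 1.17.1, R 4.3.3 and matplotlib 3.10.9. The number of sample columns that matched no described sample was 0.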

Additional observations from a re-analysis of the deposited data

Results flagged for a closer look

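In groups of 5 or 7 mice, a mouse was singled out by Dixon's test. Its gap to the nearest other mouse, divided by the range of the group, had to exceed the 95% critical value. This held in 11 of 69 groups of values, some of which had identical values and could not be flagged. All 11 were at CpGs named for the smallest p, so no rate by chance can be set beside them. A flag also comes easily where all other mice are at 0%. Aged STD replicate 6 stood out near Olig3 (3.19%), Hhip (3.82%) and Ppargc1b (11.9%, the next mouse at 3.39%), and the first pair had all other mice of the group at 0%. Aged ENR replicate 6 stood out near Pcyox1l (3.39%), Sec61a1 (2.40%) and Wnt6 (8.67%), with all other Aged ENR mice at 0%. Young STD replicate 2 near Hhip (3.75%) and Young STD replicate 3 near Ppargc1b (2.13%) were the only mice of their group above 0%. Near Srrm4, Aged ENR replicate 2 had 12.1% and the next mouse 3.98%. Near Gm3571, Aged STD replicate 1 had 2.17% against 0.606%, and Aged ENR replicate 3 had 20% against 7.69%.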

How the results depend on the processing

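The number of unmethylated CpGs rose from 38131 to 219481 when values in at least 15 mice were enough, and ran from 38230 to 43909 with each mouse left out. The promoter share of 80.1% was 65.8% within 500 bases of a start, 85.9% within 2000 bases, 75.7% with protein-coding genes only, 85.6% with a limit of 2%, 74.5% with a limit of 10% and 81.9% outside CCGG. Mean methylation, Aged STD minus Young STD (0.0254 points), was -0.125 in series 27, 0.240 in series 37, -0.278 with a limit of 10% and -0.117 with 1 CpG per group of neighbouring CpGs. For Aged ENR minus Young STD (0.0237 points) it was -0.132, 0.245, -0.218 and -0.0965 in the same order. Gains, Aged STD minus Young STD (0.114 points), were -0.846 in series 37, and Aged ENR minus Young STD (0.227 points) were 0.795 in series 27 and -0.625 in series 37. The first also turned negative with a limit of 10% (-0.475), averaged over the series (-0.0411), with 1 CpG per group of neighbouring CpGs (-0.0499), with gains of at least 50% (-0.000375) and without the 5 mice with most exact values (-0.119), and the second with a limit of 10% (-0.198). The cause was not tested.

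CpGs with groups that did not overlap numbered 0, 0 and 0 with a limit of 2% (Aged STD against Young STD, Aged ENR against Aged STD, Aged ENR against Young STD), and 49 and 41 with a limit of 10% in the comparisons with Young STD. With a mouse left out they ran from 10 to 34, 1 to 3 and 7 to 35, fewer mice overlapping less easily by construction. Most were found without Young STD replicates 4 or 5 (34 each) in the first, without Aged STD replicate 3 (3) in the second and without Young STD replicate 5 (35) in the last. A single prior variance called 1 unmethylated CpG (Rabgap1) among 127 of all 527598 CpGs for Aged STD minus Young STD, 0 among 19 of 530257 for Aged ENR minus Aged STD and 0 among 90 of 522272 for Aged ENR minus Young STD; with all 3 groups in the fit, 44, 1 and 55 of 582439 CpGs were called, 0 of them unmethylated; with any mouse left out, 0 to 0 were called in each comparison. Gains shared by the opposite strand (2.68%) were 8.52% where both strands had to reach 10%, 6.26% with a limit of 10%, 0% with a limit of 2% and 0% where both strands had to reach 50%, and 1.93% to 2.91% with a mouse left out. Gains shared by the next CpG (5.64%) were 9.06% where both CpGs had to reach 10%, 2.90% where both CpGs had to reach 50%, 2.16% with a limit of 2% and 13.7% with a limit of 10%, and 5.35% to 5.80% with a mouse left out.

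With a mouse left out, the mean differences ran from -0.0151 to 0.0632, -0.0327 to 0.0346 and -0.0168 to 0.0614 points, and the gain differences from -0.0599 to 0.326, -0.0124 to 0.211 and 0.0529 to 0.438 points. At the 18 CpGs named for the smallest p, the difference kept its sign in all 264 values computed, which the choice on these values favours. Other named CpGs were not recomputed. The correlation of same-numbered mice stayed between -0.00286 and 0.00991 over the unmethylated CpGs. Most values there are 0%, so pairing of the mice cannot be judged from it. Over all CpGs measured in every mouse it ran from -0.0935 to 0.0781. With the replicate number as a block, mean differences were 0.00354, -0.00173 and -0.00184 points, gain differences 0.303, 0.113 and 0.201 points, and 0 CpGs were called. Unknown read numbers limit the precision of all values.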
